A study of Mus musculus with 42 samples.

Results

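Ncr1, Fcgr3 and Crtam, the adaptor genes Fcer1g, Tyrobp and Hcst, the kinase genes Syk and Zap70, and the SAP family adaptor genes Sh2d1a and Sh2d1b1 were followed through uterine tissue-resident NK (trNK) cells of the mouse. The 10 genes were taken by name from a list of activating receptors and their signalling partners. They are 10 of the 54353 genes present in every bulk RNA-Seq file and 10 of the 35237 genes of the joined single-cell matrix.

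NK cells weigh activating against inhibitory receptors. NKp46, the product of Ncr1, and CD16, the product of Fcgr3, cannot signal alone and pair with small membrane adaptors such as Fcer1g, while Tyrobp (DAP12) and Hcst (DAP10) serve other activating receptors such as NKG2D. Phosphorylated ITAM motifs of Fcer1g and Tyrobp recruit the kinases Syk and Zap70, and Hcst engages phosphatidylinositol 3-kinase instead. Sh2d1a (SAP) and Sh2d1b1 (EAT-2) couple receptors of the SLAM family to downstream kinases. In the pregnant uterus, trNK cells expand during decidualization and take part in remodelling of the spiral arteries.

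The bulk data were 34 RNA-Seq libraries in 17 groups of 2 libraries, all of wild-type C57BL/6 mice, which the methods give as 8–12 weeks old. Freshly sorted trNK cells, by the gate CD45+NK1.1+NKp46+CD49a+CXCR6-, came from virgin mice and from gd6.5 and gd8.5 dams. The methods add that cells bearing lineage proteins (Lin, among them CD3 and CD5) were gated out, which would remove T cells, and the CD49a gate would remove cNK cells, the conventional NK cells that lack CD49a. At gd8.5 the same gate was split by CD55 and 4-1BB into CB_low, CB_int and CB_hi cells, which are low, intermediate and high for both proteins. In a 3-day culture, sorted trNK cells of gd6.5 dams low for both proteins were kept without IL-21 (ctrl), with 20 ng/mL IL-21 (IL21), or with IL-21 and 1 µM Stattic, an inhibitor of STAT3 (IL21_iSTAT3), and live NK1.1+ cells were collected. The methods give 10 ng/mL IL-15 in this medium, and the label of ctrl gives no duration. A time course began with wild-type trNK cells of the CD55- and 4-1BB-low subgroup of gd6.5 dams, as the study's text has it, and sampled them at 0, 6, 24 and 72 h in IL-15 with or without 20 ng/mL IL-21, where the labels give IL-15 as both 10 and 15 ng/mL. The time course was amplified with another kit than the other libraries, and each of the 4 experiments was normalised on its own, so levels are compared only within an experiment. The single cells were live CD45+NK1.1+NKp46+ cells of pooled uteri of virgin and gd8.5 wild-type mice, and the files used here do not say which cell came from which.

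Total counts per library were 16422380 to 22956216 over gestation, 11862089 to 20786471 in the subsets, 12189886 to 29537298 in the culture and 28541369 to 66468883 in the time course. The labels do not say whether replicates came from separate animals, so p-values measure only the spread between these libraries. NKp46 and NK1.1 were sorted on, and the 4 NK cell markers used here, none of them a member, were at 1 RPKM (reads scaled to library size and gene length) or more in all 34 libraries. Some marker lists share genes, with Eomes in the NK cell, trNK and cNK lists and Klrb1c in the NK cell and trNK lists. The virgin libraries stood apart from each other, with 843 and 7947 summed RPKM for 8 markers of terminal trNK cells. These were the lowest and highest sums over gestation, so the gd6.5 and gd8.5 libraries lay between the virgin ones. Macrophage markers (9 genes) summed to 49.2 and 297.7 RPKM in CB_low, 265.3 and 363.8 in CB_int, and 28.7 and 24.5 in CB_hi, and to at most 70.8 RPKM in the other experiments. Dendritic cell markers (5 genes, Siglech listed at 0 in all subset libraries) summed to 266.1 and 102.4, 312.1 and 84.1, and 2.96 and 2.16 RPKM in the same order. Plasma cell markers (4 genes) summed to 1907.9 RPKM in CB_int replicate 2 and to 33.3 to 103.5 RPKM in the other subset libraries. Erythroid cell markers (5 genes) summed to 13.2 and 231.3 RPKM in the virgin libraries, 0.247 and 836.4 at gd8.5 and at most 0.294 at gd6.5, and their part in the gestation differences was not tested. In bulk libraries, fewer cells of a type and less RNA per cell cannot be told apart.

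On mm10, Ncr1 lies at chr7:4337724-4345164 on the plus strand, Fcgr3 at chr1:171051174-171064935 and Fcer1g at chr1:171229572-171234365 on the minus strand, and Crtam at chr9:40969691-41004628 on the minus strand. Tyrobp (chr7:30413760-30417585, plus) and Hcst (chr7:30417712-30419854, minus) face each other tail to tail with 126 bases between them. Syk lies at chr13:52583173-52648792, Zap70 at chr1:36761798-36782818, Sh2d1a at chrX:42502453-42529330 and Sh2d1b1 at chr1:170277320-170286769, all on the plus strand. Sh2d1a shares 1465 of its 5505 exon bases (26.6%) with Tenm1 on the other strand, and the strand used for counting was not stated. Tenm1 itself held 0 to 80 counts per library against 1096 or more for Sh2d1a. Fcgr3 has a close copy in Fcgr2b and Sh2d1b1 in Sh2d1b2, so their reads may be split between copies.

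Start-site sequence was found for 7 of the 10 genes in the RefSeq table of GRCm38.p6, in 12 windows from 250 bases before to 50 bases after a start, and not for Crtam, Tyrobp or Sh2d1a. The windows of 3 genes are printed because Ncr1 and Fcgr3 fell within 6 h of IL-21 and Hcst had the largest difference of the tested members between subsets. Capitals mark matches on either strand to TGTGGT, a RUNX motif, or CAGGAA, an ETS motif. The first window is chr7:4337465-4337764 (plus strand), the next chr1:171059354-171059653 (minus strand), and the last chr7:30419805-30420104 (minus strand).
Ncr1: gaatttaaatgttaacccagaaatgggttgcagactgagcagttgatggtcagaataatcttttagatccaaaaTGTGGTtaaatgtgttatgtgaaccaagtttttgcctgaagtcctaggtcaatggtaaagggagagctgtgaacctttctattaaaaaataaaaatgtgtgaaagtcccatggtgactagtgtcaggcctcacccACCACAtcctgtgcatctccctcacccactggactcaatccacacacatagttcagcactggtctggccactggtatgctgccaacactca
Fcgr3: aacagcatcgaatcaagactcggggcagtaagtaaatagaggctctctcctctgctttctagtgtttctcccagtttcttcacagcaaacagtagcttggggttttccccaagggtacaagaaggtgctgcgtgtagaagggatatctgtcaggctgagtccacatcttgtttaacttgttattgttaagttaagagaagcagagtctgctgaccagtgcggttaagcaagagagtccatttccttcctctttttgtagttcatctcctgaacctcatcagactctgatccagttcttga
Hcst: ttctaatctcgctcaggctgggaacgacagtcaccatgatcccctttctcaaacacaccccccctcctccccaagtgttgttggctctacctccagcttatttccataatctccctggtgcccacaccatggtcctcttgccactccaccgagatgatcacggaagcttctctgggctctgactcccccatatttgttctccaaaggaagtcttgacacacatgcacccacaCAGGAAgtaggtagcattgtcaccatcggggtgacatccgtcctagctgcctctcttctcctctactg
The Ncr1 window held 2 RUNX matches, which begin 176 and 41 bases before the start, the Fcgr3 window, whose start lies inside the gene's span, held no match, and the Hcst window held 1 ETS match 18 bases before the start. The STAT motif TTCNNNGAA, present in 8.3% of all 32851 windows of the table, was absent from all 12 windows of the members. No match overlapped another in the printed windows. RUNX matches occurred in 16.8% and ETS matches in 30.6% of all windows. A match is a description of the letters and not a shown binding site.

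Differences between groups were tested with edgeR on the counts of every gene whose RPKM, scaled by total counts for this filter, exceeded 10 in both libraries of any group. Displayed RPKM are scaled by TMM, a trimmed mean of the ratios between libraries. A call, written here as rose or fell, required more than a 2-fold change and an adjusted p under 0.05. Groups that do not overlap are reported as a description of 2 libraries each. The share of all genes that separate in the same way was not computed, so a lack of overlap does not set a member apart. Of the 10 members, 9 passed this filter over gestation and in the subsets, and 8 in the culture and in the time course. Syk passed in no experiment, Crtam not in the culture and Zap70 not in the time course. Crtam passed in the subsets only through CB_low and in the time course only through the 0 h libraries.

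From virgin mice to gd6.5, Ncr1, Hcst and Sh2d1a fell, 3 of 9 tested members against 6.22% of 4504 genes called. Of these genes 51.8% were higher at gd6.5 with TMM and 67.2% with total counts. Between virgin and gd8.5 none of the 9 was called, with 0.377% of genes called. At an unadjusted p under 0.05 there were 2 members and 630 genes, and no member was among the 164 genes called by DESeq2 or the 25 by limma voom. Between gd6.5 and gd8.5 none was called, and the call rate over all genes was 0%. At an unadjusted p under 0.05 there were 6 members among 1062 genes. DESeq2 called 0 members among 221 genes, and limma voom 0 genes. The median difference of the 9 members there was 0.62 on the log2 scale against -0.01 over all genes.

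Among the subsets, Fcgr3 was higher and Hcst and Crtam were lower in CB_hi than in CB_low, so 3 of 9 members were called against 21.2% of 4683 genes. Neither step alone gave a call: 0 of 9 members in CB_int against CB_low (0.32% of genes called) and 0 of 9 in CB_hi against CB_int (1.75% of genes called). At an unadjusted p under 0.05 there were 3 members among 934 genes and 4 among 1074 of the 4683 genes in these steps, and DESeq2 called 0 members among 187 genes and 1 among 326. Crtam passed the filter only through CB_low, where it is high, so its call was bound to be a lower one, and 2 of the called members were over the filter in both groups.

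In culture, Ncr1 fell with IL-21 and Stattic against ctrl, 1 of 8 members against 4.74% of 4158 genes called. With IL-21 alone 0 of 8 members were called (0.289% of genes called), with 2 members among 382 genes at an unadjusted p under 0.05 and 2 among 162 called by DESeq2. Adding Stattic to IL-21 gave 0 of 8 members called, with 2.96% of genes called, 2 members among 824 genes at an unadjusted p under 0.05 and 1 among 445 called by DESeq2.

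In the time course, IL-21 lowered Ncr1 and Fcgr3 at 6 h (2 of 8 members, 1.97% of 3503 genes called) and Fcgr3 at 24 h (1 of 8, 1.66%). At 72 h 0 of 8 members were called, although 8.08% of genes were. At an unadjusted p under 0.05 there were 2 members among 881 genes, and DESeq2 called 0 members among 475 genes. In the libraries labelled 0 h with and without IL-21, 0 members and 0% of genes were called (110 genes at an unadjusted p under 0.05, 0 by DESeq2 or limma voom). Without IL-21, Tyrobp, Hcst and Sh2d1b1 rose from 24 to 72 h, 3 of 8 members against 14.8% of genes. From 0 to 6 h the call rate was 0% (106 genes at an unadjusted p under 0.05, 6 called by DESeq2) and from 6 to 24 h 0.0856% (197 genes and 2 members at an unadjusted p under 0.05, 13 genes and no member called by DESeq2), with no member called in either. The change in the IL-21 effect from 6 to 72 h was called for Fcgr3, 1 of 8 members against 4.17% of genes.

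**Figure D1:**
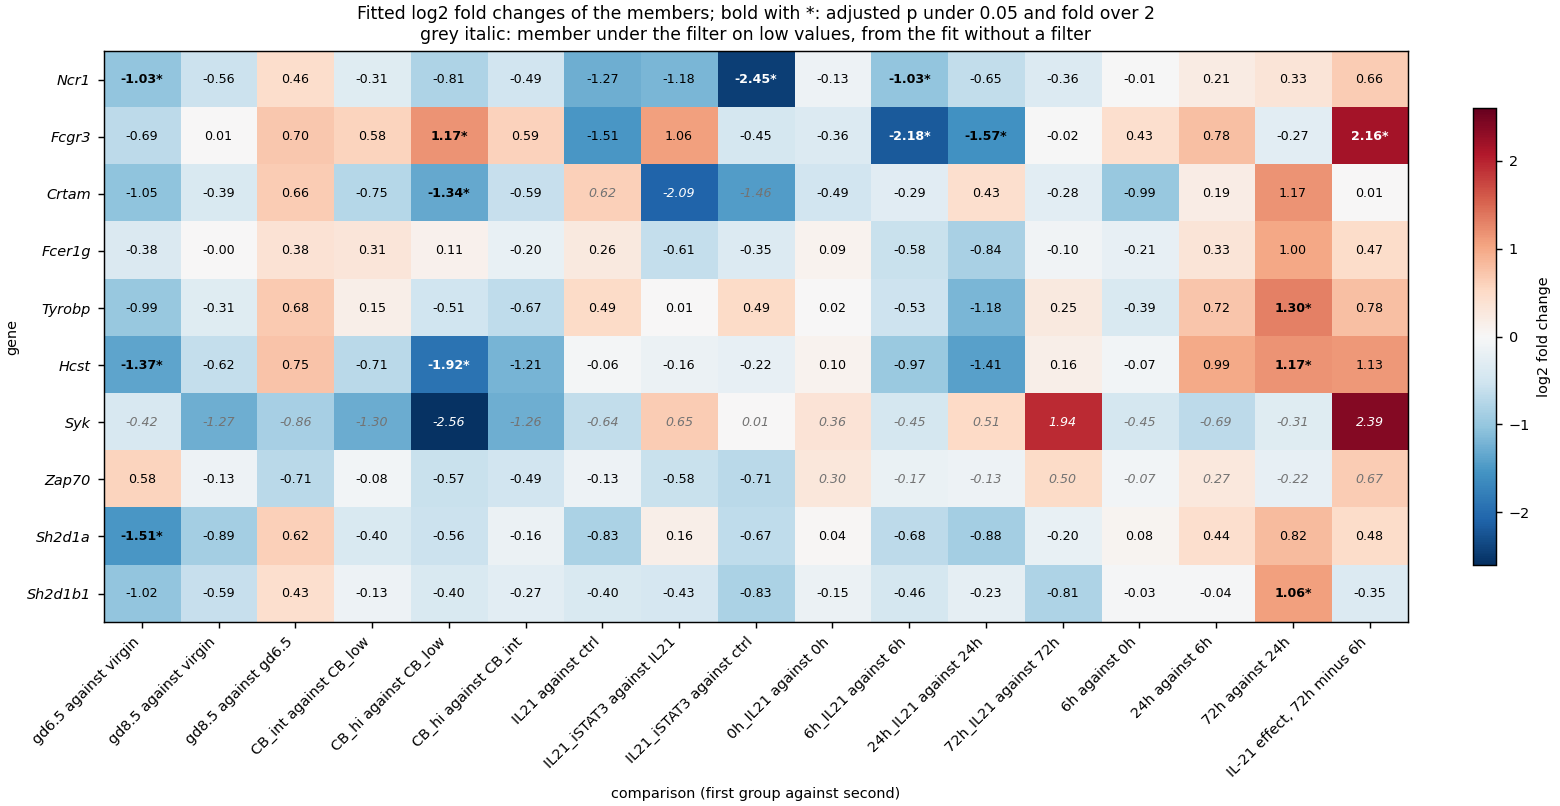
Fitted log2 fold changes of the 10 genes (rows) in the 17 comparisons (columns, first group against second), with blue for lower and red for higher. Bold values with an asterisk passed an adjusted p of 0.05 and a fold of 2, and grey italic values come from a fit without the filter on low values. The largest called values of these 3 genes are Ncr1 with IL-21 and Stattic (-2.45), Fcgr3 at 6 h of IL-21 (-2.18) and Hcst in CB_hi (-1.92).

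Ncr1 was the receptor gene with the highest RPKM in every library except those of IL21_iSTAT3, where Fcgr3 was higher. Its gestation levels were 1027 and 1013 RPKM in virgin mice, 519.8 and 483 in gd6.5 dams, and 672 and 709 in gd8.5 dams. The 3 groups did not overlap, with virgin mice highest and gd6.5 lowest. The fall to gd6.5 was called (log2 fold change -1.03, standard error 0.15, edgeR adjusted p = 0.0289). Without either virgin library the call held, at -1.02 and -1.04, whereas it was lost without gd6.5 replicate 1 (-1.08, adjusted p = 0.231) or gd6.5 replicate 2 (-0.97, adjusted p = 0.134). At gd8.5 the difference from virgin mice was -0.56 (adjusted p = 0.206) and that from gd6.5 was 0.46 (adjusted p = 0.14), so neither neighbour in the order was called. With total counts the fall to gd6.5 missed the fold limit (-0.94, adjusted p = 0.0272). Gamma delta T cell markers (6 genes) summed to 777.8 and 412 RPKM in virgin mice, 269.9 and 234.4 at gd6.5, then 458.7 and 474 at gd8.5. The 4 NK cell markers summed to 8860.2 and 6300.4, 4462.4 and 4956.9, and 6400.7 and 6400.0 RPKM in the same order. The Lin- gate would remove gamma delta T cells. Both sums were lowest at gd6.5, like Ncr1, Hcst and Sh2d1a, and the part of cell composition in these falls was not tested.

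Across the subsets Ncr1 was 1011 and 965 RPKM in CB_low, 832 and 758 in CB_int, and 637 and 492 in CB_hi. The order CB_low, CB_int, CB_hi held in every library. CB_hi was lower than CB_low (log2 fold change -0.81, edgeR adjusted p = 0.017), which is short of the 2-fold limit, and no difference of neighbouring subsets passed the test (adjusted p = 0.353 and 0.169). The NKp46 protein was part of the sort gate of all 3 subsets. Markers of conventional NK cells (cNK, 9 genes) summed to 1596.6 and 2542.7 RPKM in CB_low, 1189.9 and 1092.1 in CB_int and 503 and 453.2 in CB_hi, and the 4 NK cell markers to 8237.4 and 7739.2, 7233.9 and 5347.9, and 4309.4 and 3398.0 RPKM. Both sums, which share Eomes, had the order CB_low, CB_int, CB_hi from high to low, as did Ncr1, Hcst, Crtam and Syk. The part of cNK cells, which the CD49a+ gate would remove, in these differences was not tested.

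After 3 days of culture Ncr1 was 420.4 and 324 RPKM in ctrl, 155 and 153 with IL-21, and 50.9 and 85.1 with IL-21 and Stattic. No library of one condition overlapped with another, and the condition with the inhibitor was lowest. The fall against ctrl was called (log2 fold change -2.45, standard error 0.36, edgeR adjusted p = 0.0117). It was lost without ctrl replicate 1 (-2.25, adjusted p = 0.0637) or without IL21_iSTAT3 replicate 1 (-2.08, adjusted p = 0.0689). IL-21 alone differed from ctrl by -1.27 (adjusted p = 0.204), and the inhibitor differed from IL-21 alone by -1.18 (adjusted p = 0.126). Scaling by total counts in place of TMM moved the median of all genes between IL21_iSTAT3 and ctrl from -0.02 to -0.31 and the difference of Ncr1 to -2.74, and the share of calls that were higher went from 61.9% to 36.8%. The 4 NK cell markers summed to 6687.9 and 5251.6 RPKM in ctrl, 7893.2 and 5361.8 in IL21 and 3319.8 and 4171.5 in IL21_iSTAT3. Markers of trNK cells (3 genes) summed to 556.6 and 549.0 RPKM in ctrl, 176.6 and 207.1 in IL21 and 196.6 and 172.7 in IL21_iSTAT3, and those of gamma delta T cells to 683.9 and 649.6, 391.4 and 304.0, and 215.5 and 319.0 RPKM in the same order. The Lin- gate of the trNK sort would remove gamma delta T cells before this culture too. The trNK and gamma delta T cell sums were lower than ctrl in both treated conditions and the NK cell sum was lower only with the inhibitor, and their part in the differences of Ncr1 was not tested.

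Over the time course Ncr1 was 827 and 867 RPKM at 0 h, and 774 and 778 in the 0 h libraries labelled with IL-21. At 6 h it was 849 and 836 without and 403 and 425 with IL-21, and the groups did not overlap. This fall (log2 fold change -1.03, standard error 0.15, edgeR adjusted p = 0.00608) was lost without 6 h replicate 2 (-1.04, adjusted p = 0.0527), 6 h IL-21 replicate 1 (-1.03, adjusted p = 0.0905) or 6 h IL-21 replicate 2 (-1.11, adjusted p = 0.0702). It also missed the fold limit with total counts (-0.99, adjusted p = 0.013). At 24 h Ncr1 was 1020 and 934 RPKM without and 618 and 626 with IL-21, a difference of -0.65 (adjusted p = 0.0538). At 72 h it was 1071 and 1380 without and 975 and 934 with IL-21 (-0.36, adjusted p = 0.163). The libraries with IL-21 were below those without it at every time, and the change of the IL-21 effect from 6 to 72 h was 0.66 (adjusted p = 0.108), beside 0.14 for the median gene.

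Marker sums moved with these falls of Ncr1 and Fcgr3. Markers of trNK cells (3 genes, none a member) summed to 292.3 and 332.9 RPKM without and 109.8 and 110.8 with IL-21 at 6 h, and to 467.5 and 441.2 without and 193.2 and 186.1 with IL-21 at 24 h. Gamma delta T cell markers were 430.7 and 491.6 without and 266.6 and 239.8 RPKM with IL-21 at 6 h, then 663.4 and 619.5 without and 326.7 and 357.7 with IL-21 at 24 h. The 4 NK cell markers were lower with IL-21 at both times as well, at 8365.2 and 7042.0 against 9732.0 and 11295.6 RPKM at 6 h and 9033.6 and 9897.9 against 14028.0 and 13198.1 at 24 h. At 72 h the sums with and without IL-21 were apart for the trNK markers (434.4 and 532.9 with, 692.7 and 775.4 RPKM without) and overlapped for the other 2 lists. The Lin- gate of the trNK sort would remove gamma delta T cells before the culture. The part of cell composition in the falls was not tested.

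**Figure D2:**
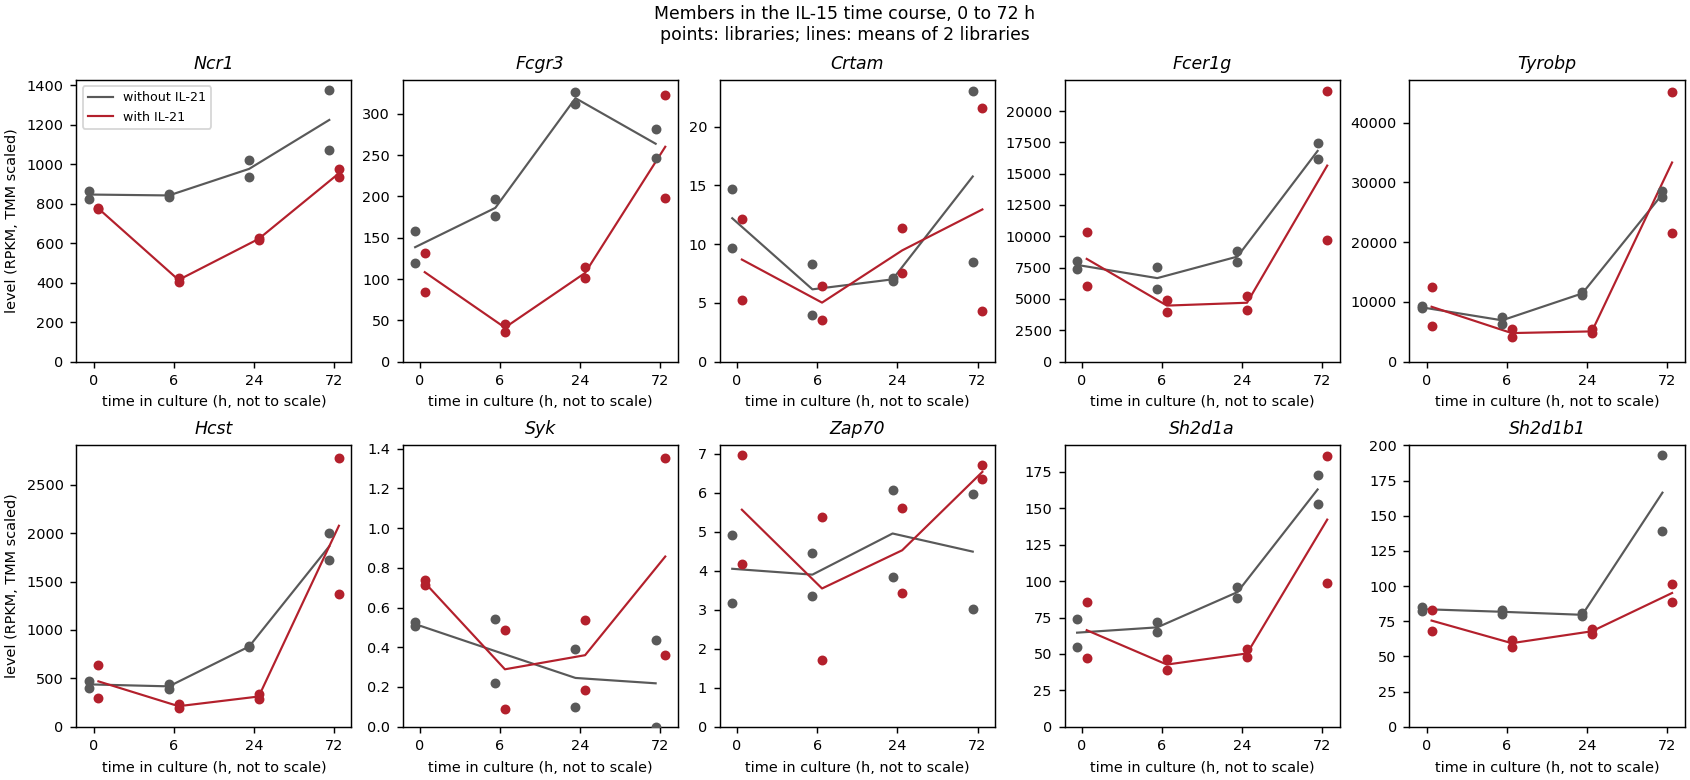
Level of each gene (RPKM, TMM scaled, linear axes from 0) against time in culture in IL-15 (0, 6, 24 and 72 h, spaced evenly and not to scale), with points for single libraries and lines through the means of 2 libraries, grey without and red with IL-21. Ncr1 and Fcgr3 dip at 6 h only with IL-21, to 403 and 425 RPKM for Ncr1, and Tyrobp and Hcst are highest at 72 h.

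Fcgr3 encodes the activating Fc receptor CD16, which binds antibody on a target cell. Its levels over gestation were 95 and 156 RPKM in virgin mice, 82.0 and 73.4 at gd6.5, then 128 and 125 at gd8.5. The virgin libraries spanned both libraries of gd8.5, and no gestation difference was called. In the subsets it was 69.9 and 126 RPKM in CB_low, 155 and 137 in CB_int, and 229 and 211 in CB_hi, which did not overlap and ran opposite to Ncr1 in the order of the subsets.

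Fcgr3 was 1.17 higher in CB_hi than in CB_low on the log2 scale (standard error 0.28, edgeR adjusted p = 0.0211). The call was lost without CB_low replicate 1 (0.81, adjusted p = 0.042), CB_hi replicate 1 (1.12, adjusted p = 0.0694) or CB_hi replicate 2 (1.23, adjusted p = 0.0801). Without CB_low replicate 2, the library with more macrophage marker RNA of that group, the difference was 1.65. Macrophage marker sums were 28.7 and 24.5 RPKM in CB_hi, and their part in the Fcgr3 levels was not tested.

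With IL-21 the Fcgr3 level was lower in the 3-day culture and at 6 and 24 h of the time course. In the 3-day culture it was 240.5 and 264 RPKM in ctrl, 84.9 and 91.8 with IL-21, and 125 and 244 with IL-21 and Stattic. IL-21 libraries lay below all others, by -1.51 against ctrl (edgeR adjusted p = 0.15), and the inhibitor differed from IL-21 alone by 1.06 (adjusted p = 0.173). At 6 h of the time course Fcgr3 was 197 and 176 RPKM without and 36.3 and 46.0 with IL-21. This was the largest IL-21 difference among tested members at any time, at -2.18 on the log2 scale (standard error 0.28, adjusted p = 0.00362), lost without 6 h IL-21 replicate 1 (-2.07, adjusted p = 0.0636).

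At 24 h Fcgr3 was 327 and 312 RPKM without and 114 and 101 with IL-21, a difference of -1.57 on the log2 scale (standard error 0.28, edgeR adjusted p = 0.0202). That call was lost whichever 1 of the 4 libraries was left out, namely without 24 h replicate 1 or 2 (-1.54 and -1.59, adjusted p = 0.141 and 0.118), or without 24 h IL-21 replicate 1 or 2 (-1.64 and -1.48, adjusted p = 0.192 and 0.248). It was also lost with total counts (-1.47, adjusted p = 0.0851). At 72 h the levels overlapped, at 281 and 246 RPKM without and 322 and 198 with IL-21 (-0.02, adjusted p = 0.977). The IL-21 effect at 72 h exceeded that at 6 h by 2.16 (standard error 0.39, adjusted p = 0.00901), beside 0.14 for the median gene, and this call was lost without 6 h IL-21 replicate 1 (2.06, adjusted p = 0.0537). At 0 h Fcgr3 was 158 and 119 RPKM, and 84.7 and 132 in the libraries labelled with IL-21.

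Crtam encodes an adhesion receptor of activated NK and T cells that binds nectin-like proteins. It was low throughout, from 1.25 to 37.3 RPKM. Its gestation levels were 37.3 and 12 RPKM in virgin mice, 12.2 and 11.6 at gd6.5, then 21.2 and 16.4 at gd8.5, and no difference was called. The spread between the virgin libraries was wider than any gap between the means of the gestation groups.

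In the subsets Crtam followed the order of Ncr1, at 19.3 and 14.8 RPKM in CB_low, 12.8 and 7.51 in CB_int, and 6.98 and 6.53 in CB_hi. It was lower in CB_hi than in CB_low (log2 fold change -1.34, standard error 0.31, edgeR adjusted p = 0.0201), and the call was lost whichever 1 of the 4 libraries was left out, with differences from -1.51 (without CB_low replicate 2, adjusted p = 0.0501) to -1.13 (without CB_low replicate 1, adjusted p = 0.0755). Without CB_hi replicate 1 or 2 it was -1.37 and -1.29 (adjusted p = 0.0742 and 0.109). In culture Crtam was 16.1 and 6.16 RPKM in ctrl, 25.5 and 8.13 with IL-21, and 1.25 and 6.56 with IL-21 and Stattic. In a fit without the filter on low values it was lower with the inhibitor than with IL-21 alone (log2 fold change -2.09, edgeR adjusted p = 0.00314). In that fit 2.17% of 21257 genes were called. Neither condition passed the filter, and the fit was not repeated with a library left out. The 16 time course libraries ran from 3.57 to 23.0 RPKM with a median of 7.91, and nothing was called.

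**Figure D3:**
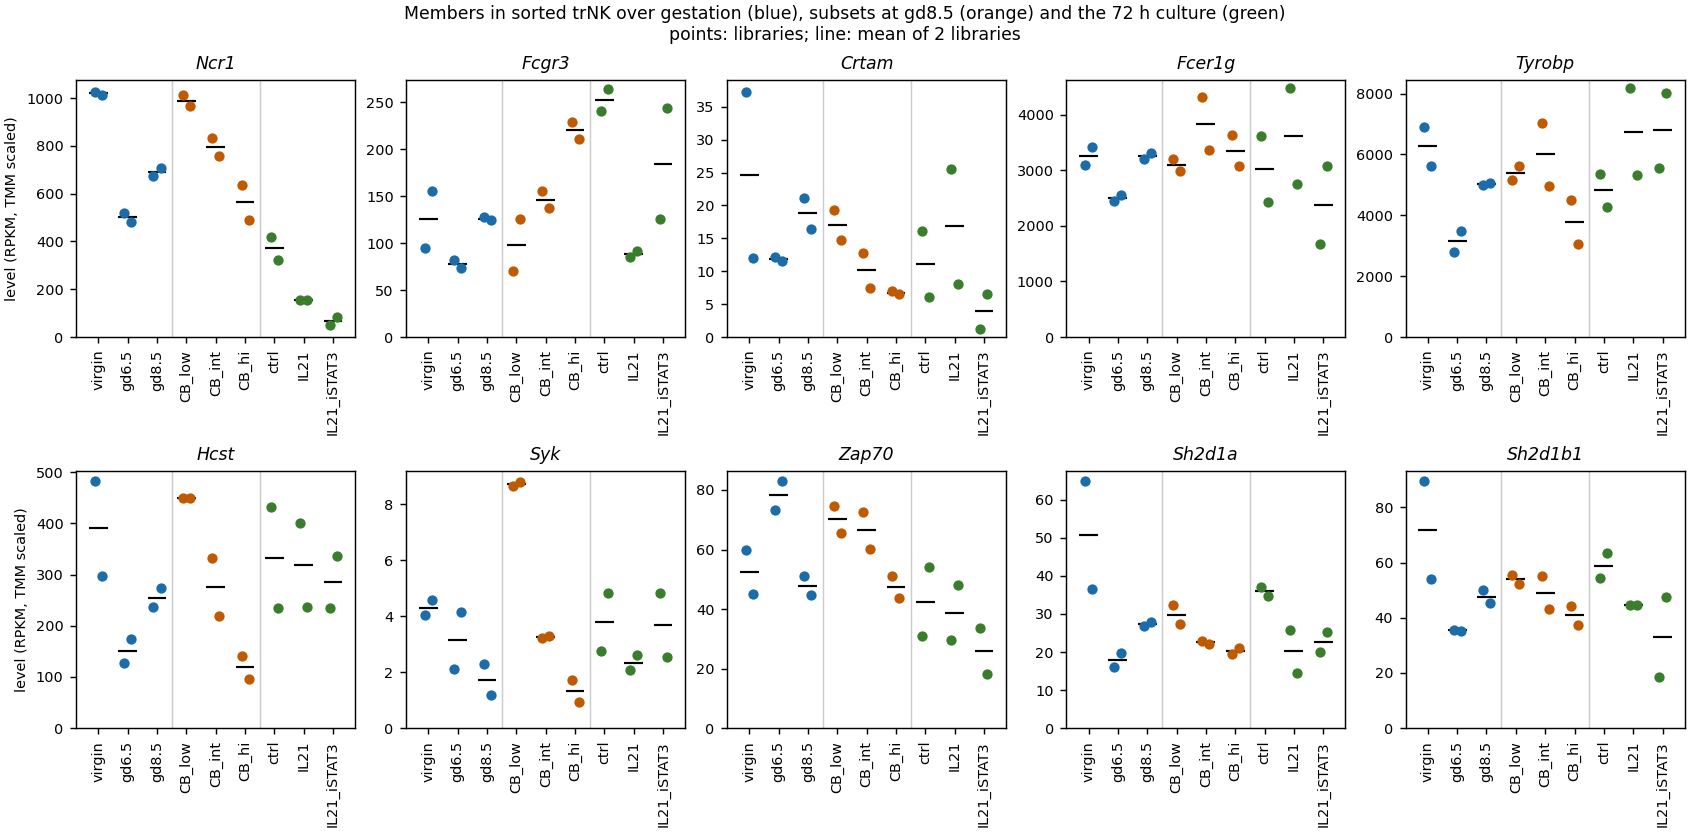
Level of each gene (RPKM, TMM scaled, linear axes from 0) in the gestation libraries (blue), the subsets at gd8.5 (orange) and the 3-day culture (green), with points for libraries and a line at the mean of 2 libraries. Ncr1 and Hcst step down from CB_low to CB_hi while Fcgr3 steps up from 69.9 and 126 to 229 and 211 RPKM.

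The transmembrane adaptors Tyrobp and Fcer1g had the highest RPKM of the 10 genes in every experiment, and Hcst was lower. Fcer1g, the ITAM chain shared by NKp46 and CD16, was 3098 and 3423 RPKM in virgin mice, 2448 and 2561 at gd6.5, then 3194 and 3306 at gd8.5. It was called in none of the 17 comparisons. Its subset levels of 2991 to 4320.2 RPKM overlapped between CB_low and CB_hi, and in culture it was 3608 and 2426 in ctrl, 4485 and 2760.1 with IL-21, and 1666 and 3068 with the inhibitor. Without IL-21 it went from 7914 and 8841 RPKM at 24 h to 16167 and 17459 at 72 h of the time course, a difference of 1.00 (edgeR adjusted p = 0.0744).

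Tyrobp, the ITAM adaptor DAP12, was 6908 and 5610.0 RPKM in virgin mice, 2805 and 3483 at gd6.5, then 5009 and 5056 at gd8.5. The gd6.5 libraries were below all others, by -0.99 against virgin mice (edgeR adjusted p = 0.032), just short of the fold limit. In the subsets it was 5160.1 and 5613 RPKM in CB_low, 7042 and 4951 in CB_int, and 4518 and 3046 in CB_hi. CB_hi lay below the other subsets without a call (-0.51 against CB_low, adjusted p = 0.147). The culture conditions ran from 4275 to 8179 RPKM, and ctrl overlapped with IL-21.

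Tyrobp had its highest values at 72 h of the time course. It was 9254 and 8890.2 RPKM at 0 h, 6368 and 7440 at 6 h, 11222 and 11596 at 24 h and 27487 and 28588 at 72 h without IL-21. The rise from 24 to 72 h was 1.30 (standard error 0.37, edgeR adjusted p = 0.0339), lost without 24 h replicate 1 (1.27, adjusted p = 0.156), 24 h replicate 2 (1.32, adjusted p = 0.163) or 72 h replicate 2 (1.28, adjusted p = 0.0687). With total counts it was under the fold limit (0.95, adjusted p = 0.0336). With IL-21 it was 4710 and 5386 RPKM at 24 h, below both libraries without it (-1.18, adjusted p = 0.155), and 21549 and 45114 at 72 h, which enclosed the libraries without IL-21.

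Hcst, the adaptor DAP10 of NKG2D, was 483 and 297 RPKM in virgin mice, 128 and 174 at gd6.5, then 236 and 273 at gd8.5. The gd6.5 libraries were lowest, and the 3 groups did not overlap. That fall to gd6.5 was called (-1.37 on the log2 scale, standard error 0.28, edgeR adjusted p = 0.0375). Without virgin replicate 1 it dropped under the fold limit (-0.98, adjusted p = 0.0252), and it was lost without gd6.5 replicate 1 (-1.16, adjusted p = 0.273) or gd6.5 replicate 2 (-1.61, adjusted p = 0.141).

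Between subsets Hcst was 449.6 and 449.9 RPKM in CB_low, 333 and 219 in CB_int, and 142 and 96.3 in CB_hi, with no overlap. CB_hi was lower than CB_low (log2 fold change -1.92, standard error 0.27, edgeR adjusted p = 0.00526). This was the 1 of the 14 called member differences that held whichever 1 library of its comparison was left out, with values from -2.21 to -1.66. The CB_low libraries had these near-equal Hcst levels at macrophage marker sums of 49.2 and 297.7 RPKM. The cNK and NK cell marker sums, given above, had the same order of subsets as Hcst. The part of other cells in the Hcst difference was not tested.

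The culture libraries of Hcst overlapped between all conditions, from 234 to 431 RPKM. In the time course it was 390.3 and 444 RPKM at 6 h without and 230.4 and 194 with IL-21 (-0.97, edgeR adjusted p = 0.265), and 830.1 and 828 against 286 and 338 at 24 h (-1.41, adjusted p = 0.0829). The groups did not overlap at either time, and neither difference was called. Without IL-21 Hcst rose to 1725 and 2005 RPKM at 72 h, by 1.17 (standard error 0.36, adjusted p = 0.0441). That call was lost without 24 h replicate 1 or 2 (1.17 in both cases, adjusted p = 0.175 and 0.193) or 72 h replicate 2 (1.07, adjusted p = 0.113), and with total counts (0.82, adjusted p = 0.0571), which moved the median of all genes for this step from -0.04 to -0.38. The calls of this step split as 33.6% higher with TMM and 15.1% higher with total counts. At 72 h with IL-21 Hcst was 1373 and 2781 RPKM, which enclosed the libraries without it. The markers of dividing cells (7 genes) summed to 728.1 and 663.8 RPKM at 24 h and to 15.1 and 4.82 at 72 h without IL-21. The trNK marker sums without IL-21, given above, were higher at 72 h than at 24 h. The part of both lists in the rise of Tyrobp, Hcst and Sh2d1b1 was not tested.

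Syk and Zap70 are the tandem SH2 kinases that bind phosphorylated ITAMs. Syk was scarce in all 34 bulk libraries, at no more than 8.80 RPKM, so its differences come from the fit without the filter on low values. It was 8.66 and 8.80 RPKM in CB_low (1265 and 1151 counts), 3.24 and 3.31 in CB_int, and 1.71 and 0.932 in CB_hi (241 and 104 counts). The 3 subsets did not overlap, and the replicates of CB_low and of CB_int were close. CB_hi was lower than CB_low (log2 fold change -2.56, standard error 0.36, edgeR adjusted p = 2.22e-10). Without the filter 7.71% of 26220 genes were called there. Adjusted p-values of that fit are not comparable with those of the filtered fit. For the same subsets, Hcst had an edgeR adjusted p of 1.6e-11 without and 0.00526 with the filter.

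Both steps between subsets were called for Syk in that fit: CB_int was lower than CB_low (-1.30, adjusted p = 0.0125, 1.8% of genes called) and CB_hi lower than CB_int (-1.26, adjusted p = 0.0157, 2.24% of genes called). Syk is also expressed by macrophages, dendritic cells and B cells. Dendritic cell marker sums, given above, were lower in CB_hi than in CB_low. The CB_low libraries differed in macrophage markers, at 49.2 and 297.7 RPKM, with nearly the same Syk level, and B cell markers (5 genes) summed to 4.19 and 0 RPKM there. The part of other cells in the Syk difference was not tested, and the fit without the filter was not repeated with a library left out.

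Over gestation Syk was 4.03 and 4.59 RPKM in virgin mice, 2.12 and 4.16 at gd6.5, then 2.28 and 1.2 at gd8.5. The gd8.5 libraries were below those of virgin mice (-1.27, edgeR adjusted p = 0.0327), where 2.13% of 23601 genes were called without the filter. In culture it ran from 2.08 to 4.82 RPKM without a call, and in the time course from 0 to 1.35 RPKM. No IL-21 difference of Syk passed the test, with standard errors of 0.61 in culture and 1.29 to 1.34 in the time course on the log2 scale.

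Zap70 was the more abundant of the kinases. It was 59.9 and 44.9 RPKM in virgin mice, 73.4 and 83.1 at gd6.5, then 51.1 and 44.7 at gd8.5, and was the 1 tested member with its highest level at gd6.5. The gd6.5 libraries lay above the rest, by 0.58 against virgin mice (edgeR adjusted p = 0.101), and gd8.5 was below gd6.5 (-0.71, adjusted p = 0.116), neither of which was called. In the subsets it was 74.5 and 65.7 RPKM in CB_low, 72.7 and 60.3 in CB_int and 51.0 and 43.7 in CB_hi, where CB_hi was lower than CB_low (-0.57, adjusted p = 0.0456), under the fold limit.

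In culture Zap70 was 30.9 and 54.0 RPKM in ctrl, 29.5 and 48.2 with IL-21 and 33.7 and 18.1 with the inhibitor, which overlapped. In the time course it did not exceed 6.96 RPKM in any of 16 libraries, with a median of 4.69 RPKM. That experiment used another amplification kit and was scaled on its own, so its Zap70 levels are not set against those of the 3-day culture.

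Sh2d1a, the adaptor SAP, was 65 and 36.5 RPKM in virgin mice, 16 and 19.7 at gd6.5, then 26.9 and 27.9 at gd8.5. The 3 groups did not overlap. Its log2 fold change to gd6.5 was -1.51 (standard error 0.29, edgeR adjusted p = 0.0338), between -1.03 without virgin replicate 1 and -1.86 without virgin replicate 2. It was lost without gd6.5 replicate 1 (-1.37, adjusted p = 0.259) or gd6.5 replicate 2 (-1.66, adjusted p = 0.145).

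In the subsets Sh2d1a was 32.3 and 27.3 RPKM in CB_low, 23.0 and 22.2 in CB_int, and 19.4 and 21.1 in CB_hi. The groups did not overlap, and CB_hi was lower than CB_low (-0.56, edgeR adjusted p = 0.0363), under the fold limit. In culture it was 37.2 and 34.7 RPKM in ctrl, 25.8 and 14.5 with IL-21 and 19.9 and 25.3 with the inhibitor. Both treated conditions lay below ctrl without a call (adjusted p = 0.55 and 0.325). In the time course it was 64.9 and 71.6 RPKM at 6 h without and 46.3 and 39.1 with IL-21, and 88.6 and 96.3 against 47.6 and 53.1 at 24 h. These groups did not overlap and were not called (adjusted p = 0.439 and 0.225). At 72 h the levels were 153 and 173 RPKM without and 98.4 and 186 with IL-21, which overlapped.

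Sh2d1b1, the adaptor EAT-2, was 89.6 and 54.0 RPKM in virgin mice, 35.7 and 35.3 at gd6.5, then 50 and 45.3 at gd8.5. The groups did not overlap, and the difference of gd6.5 from virgin mice was -1.02 (edgeR adjusted p = 0.0574). The subsets ran from 37.5 to 55.5 RPKM without a call. In culture it was 54.4 and 63.3 RPKM in ctrl, 44.6 and 44.8 with IL-21, and 18.7 and 47.5 with the inhibitor.

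In the time course Sh2d1b1 stayed between 78.6 and 84.9 RPKM without IL-21 up to 24 h and reached 139 and 193 at 72 h. The rise from 24 to 72 h was 1.06 (standard error 0.19, edgeR adjusted p = 0.00336), which fell under the fold limit without 72 h replicate 2 (0.82, adjusted p = 0.0157). It was also under the fold limit with total counts (0.70, adjusted p = 0.0282) and with the filterByExpr filter (0.99, adjusted p = 0.0136), and was lost without a filter (0.96, adjusted p = 0.0851) and with the groups compared alone (1.04, adjusted p = 0.0993). With IL-21 the level at 72 h was 89.0 and 101 RPKM, below both libraries without it (-0.81, adjusted p = 0.0226), a difference under the fold limit that was called without 72 h replicate 1. At 6 h it was 61.9 and 56.9 RPKM with and 80.4 and 83.0 without IL-21 (-0.46, adjusted p = 0.322).

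Other genes of the pathway were followed in 4 lists: SLAM family and related receptors with Cd48, Cd226 and Cadm1 (9 genes), other Fc receptor and CD3 chains (9), signalling proteins below the adaptors (37) and brakes on this signalling (20). Between CB_hi and CB_low all called genes of the lists were lower: 3 of 6 tested genes of the first list (Cd226, Ly9 and Cd84), 2 of 4 Fc receptor and CD3 genes, 12 of 26 signalling genes and 7 of 14 brakes. Over all genes 614 were called lower and 378 higher. A gene that passed the filter only where it is high was bound to differ: in CB_hi all 3 called genes of the first list, 1 of the 2 Fc receptor and CD3 genes, 7 of the 12 signalling genes and 5 of the 7 brakes were under the RPKM filter of 10. T cell markers (9 genes) summed to 526.9 and 577.6 RPKM in CB_low, 397.9 and 398.8 in CB_int and 388.5 and 243.9 in CB_hi, and the part of T cells, which the Lin- gate would remove, and of macrophages in these differences was not tested.

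Of the receptors in the first list, Cd226 (DNAM-1) was 7.97 ± 6.08 RPKM (SD, n = 2) in CB_hi and 42.2 ± 8.65 in CB_low, a log2 difference of -2.40, with -2.0 for Ly9 and -1.59 for Cd84. The CD3 chain Cd3g was 15.8 ± 3.06 RPKM in CB_hi and 80.0 ± 0.953 in CB_low, and Cd3d was 2.16 ± 2.01 and 47.3 ± 3.10. Among the signalling genes, Lck, a Src family kinase that phosphorylates ITAMs, was 106 ± 21.9 and 473 ± 36.8 RPKM. The scaffold Lat differed by -2.08 and the adaptor Skap1 by -2.17. Among the brakes, Sla, which promotes turnover of receptor complexes, was 1.22 ± 0.176 RPKM in CB_hi and 22.7 ± 0.234 in CB_low, with -3.05 for the diacylglycerol kinase Dgka, -1.73 for the lipid phosphatase Inpp5d (SHIP1) and -1.68 for Ubash3a.

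Between CB_hi and CB_int, Lck (-1.62) and Skap1 (-1.38) of 26 signalling genes and Sla (-2.83) and Inpp5d (-1.08) of 14 brakes were lower, beside 1.75% of all genes called, and both brakes were under the filter in CB_hi. At gd6.5 against virgin mice no gene of the 4 lists was called among 5, 4, 26 and 12 tested. The largest differences there were -1.46 for Cd84 and -1.37 for Cd226 (edgeR adjusted p = 0.0769 and 0.0848), -2.90 for Cd3d and -2.24 for Cd3g (adjusted p = 0.236 and 0.129), -1.69 for Grb2 and -1.68 for Fyn (adjusted p = 0.058 and 0.0639), and 0.76 for Cish and 0.65 for Ubash3b (adjusted p = 0.301 and 0.0907).

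IL-21 lowered Cd226 and Gab3, a Grb2-associated scaffold, in the time course. At 6 h Cd226 was 17.2 ± 3.28 RPKM with and 55.8 ± 1.66 without IL-21 (-1.70, edgeR adjusted p = 0.0105), and Gab3 was 9.05 ± 0.0856 and 18.2 ± 3.96 (-1.01, adjusted p = 0.0443). At 24 h the differences were -1.41 for Cd226 (adjusted p = 0.0305) and -1.32 for Gab3 (adjusted p = 0.0189), 1 of 5 genes of the first list and 1 of 11 signalling genes at either time, beside 1.97% of all genes at 6 h and 1.66% at 24 h. At 72 h Rac2, a small GTPase, was 1.05 higher (adjusted p = 0.0483) and Sh2d2a, an adaptor that binds Lck, was 1.82 higher (adjusted p = 0.0113) with IL-21, 1 of 11 signalling genes and 1 of 5 brakes beside 8.08% of all genes called. Sh2d2a was under the filter at 72 h without IL-21. It was also the 1 brake whose IL-21 effect differed between 72 h and 6 h (2.35, adjusted p = 0.0231). In the 3-day culture the inhibitor lowered Slamf7 against IL-21 (-2.40, adjusted p = 0.0449), 1 of 5 genes of the first list beside 2.96% of all genes, and Slamf7 was under the filter with the inhibitor. No gene of the 4 lists was called in the remaining comparisons.

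The pattern of Ncr1 over the 17 group means, each on log2(RPKM + 1) and centred on its experiment, was closest to that of I730030J21Rik (Pearson's r = 0.96), Trdv4 (0.93), Trbc2 (0.93), Pycard (0.91) and Crip1 (0.91) among 2662 genes kept in all 4 experiments. Among the members, r with Ncr1 was 0.85 for Sh2d1b1, 0.73 for Sh2d1a, 0.60 for Hcst, 0.58 for Fcer1g, 0.50 for Fcgr3 and 0.42 for Tyrobp. The points share libraries and scaling factors within an experiment, and these values are a description.

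The joined single-cell matrix held 15175 barcodes, all found in both deposited files, and counts as 1 sample without replicates. Of these, 8907 cells (58.7%) had more than 200 and fewer than 2500 detected genes and a mitochondrial share under 10%, with a median of 2576 UMIs. They formed 18 clusters in a clustering that left out the 10 members and the 4 lists. Doublets were not removed, since the caller marked 1 cell (0.01%). From marker genes other than the members, 5 clusters with 4117 cells were NK-like, 1 with 513 cells was dividing, and 6 with 2394 cells were macrophage-, dendritic cell-, B cell-, T cell-, stromal cell- or erythroid cell-like. The remaining 6 clusters stayed unnamed. Levels are CPM, the counts of a gene scaled to the summed UMIs of a cluster, with exact Poisson 95% intervals that cover counting error only. A CPM is thus a share of the UMIs. Where clusters differ in depth, a lower CPM need not mean fewer UMIs of the gene per cell.

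Of the 10 genes, Fcgr3 and Syk had a lower CPM in the NK-like clusters than in the other named clusters, and the other 8 a higher one, with intervals apart. The share of all genes with intervals apart was not computed, so this count does not set the members apart from other genes. The NK-like clusters were also named by NK cell markers, so higher levels of NK cell receptor genes there were likely from the start. Ncr1 was 379.9 CPM (370.3 to 390, 95% interval) in NK-like and 107 CPM (99.4 to 116) in the other named clusters. Fcgr3 was 95.2 CPM (90.4 to 100.1) against 278 CPM (265 to 291), and Syk 34.2 CPM (31.4 to 37.2) against 129 CPM (121 to 138). Fcer1g was close in both, at 3231 CPM (3203 to 3259) and 2973 CPM (2930.4 to 3015). The median UMI count per cell was 3613 in NK-like and 2319 in the other named clusters.

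**Figure D4:**
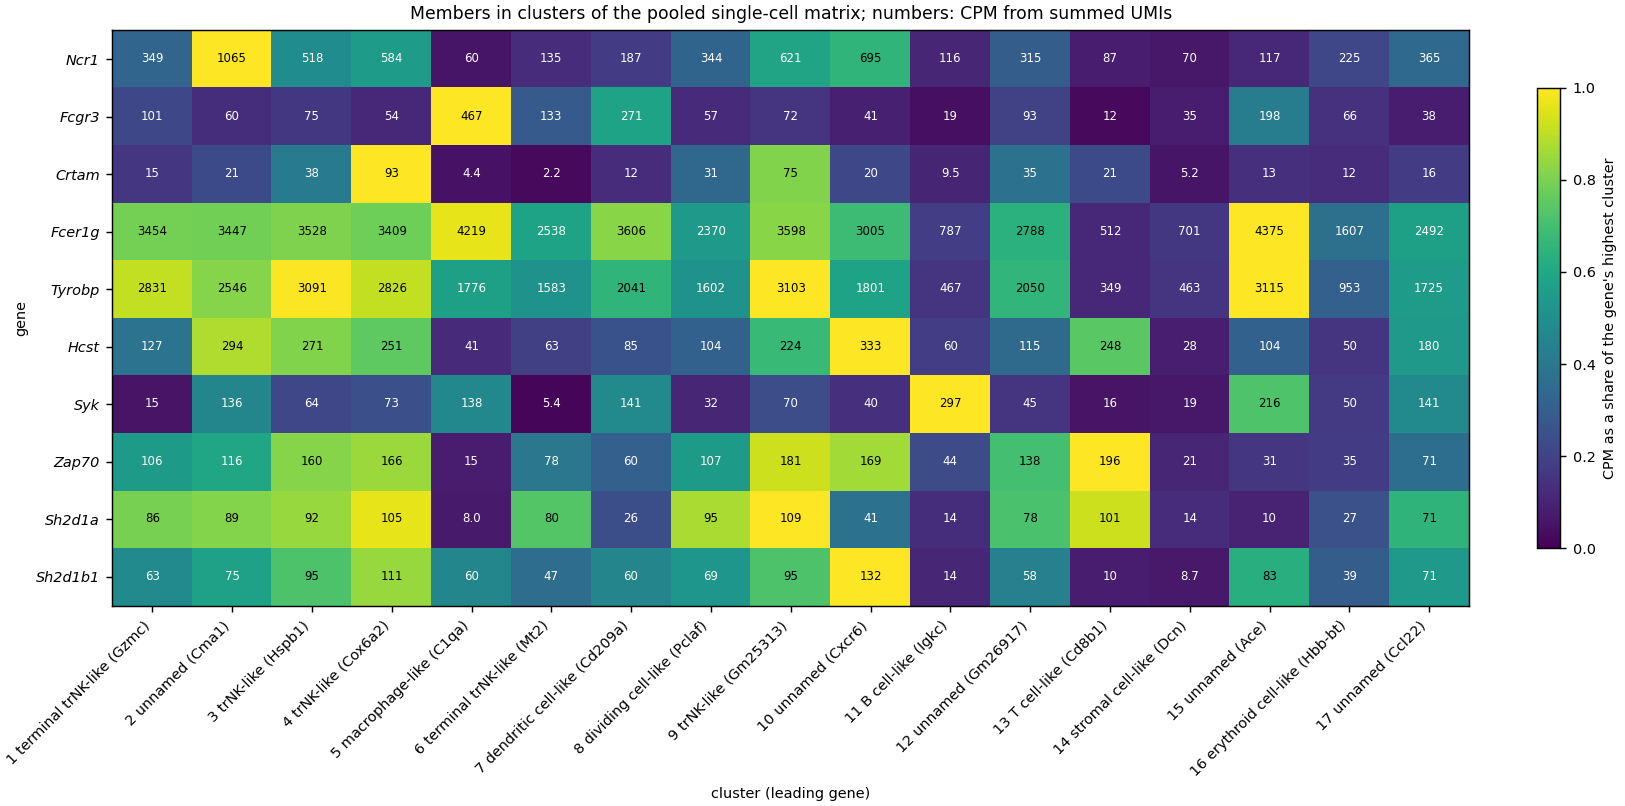
CPM of the 10 genes (rows, printed in each cell) in the 17 clusters of 50 or more cells (columns, with the leading gene of each), coloured by the share of the gene's highest cluster from 0 to 1. Ncr1 is highest in the unnamed cluster led by Cma1 (1065 CPM), Fcgr3 in macrophage-like cells (467 CPM), Crtam in the trNK-like cluster led by Cox6a2 (92.7 CPM) and Syk in B cell-like cells (297 CPM).

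Within the NK-like clusters, Ncr1 ran from 621 CPM (576 to 669) in the trNK-like cluster led by small RNA genes, 584 (555 to 613) in the one led by Cox6a2 and 518 (491 to 547) in the one led by the heat shock gene Hspb1, down to 349 (333 to 365) in the terminal trNK-like cluster led by Gzmc and 135 (124 to 147) in that led by Mt2, Scin and Ctsg. The first pair of intervals overlapped, and the others in this order did not. The highest value of any cluster, 1065 CPM (1018 to 1112), was in an unnamed cluster of 1004 cells. Its leading genes held Cma1, S1pr5 and Itga2 of the cNK list, and the mast cell genes Mcpt4, Tpsb2 and Cpa3. Of the UMIs of these mast cell genes in it, 99.5% were in 5 cells. NK cell markers were its best list, but it is not part of the NK-like sums. Clusters with S1pr5 and Cma1 among their leading genes were named NK cell-like under the UMI limits, without the upper gene limit and with 3000 variable genes. Their Ncr1 was 1111, 1077 and 1083 CPM. The unnamed cluster with Cxcr6 among its leading genes had 695 CPM (636 to 757), and dividing cells had 344 CPM (320.2 to 369).

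After thinning each cell to 1000 UMIs, which left out 602 of 8907 cells, 38.3% (35.1 to 41.6) of cells of the Cox6a2 cluster and 10.9% (8.77 to 13.4) of the Mt2 cluster held a UMI of Ncr1. Before thinning these shares were 69.9% and 40.7%, at median depths of 2659 and 5658 UMIs. In T cell-like cells, which should lack most Ncr1, the thinned share was 4.89% (2.63 to 8.21), in B cell-like cells 7.96% and in macrophage-like cells 4.83%, at median depths of 1984, 1830 and 2994 UMIs. The share of the Mt2 cluster lay above those of T cell-like and macrophage-like cells (3.47 to 6.51), and its interval overlapped those of B cell-like (5.11 to 11.7) and dendritic cell-like cells (13.1%, 10.4 to 16.3). All cells had been sorted for the NKp46 protein.

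Fcgr3 had the reverse order in 3 of the NK-like clusters, with 133 CPM (122 to 145) in the Mt2 cluster, 101 (92.7 to 110) in the Gzmc cluster and 54.1 (45.7 to 63.7) in the Cox6a2 cluster. Its highest CPM were in macrophage-like (467, 442 to 493) and dendritic cell-like cells (271, 246 to 297), and T cell-like cells had 12.1 (4.88 to 25.0). Crtam was 92.7 CPM (81.6 to 105) in the Cox6a2 cluster, 14.6 (11.5 to 18.2) in the Gzmc cluster and 2.19 (1.00 to 4.16) in the Mt2 cluster, where 9 UMIs were counted. The 2 receptor genes thus had opposite orders between the trNK-like cluster and both terminal clusters.

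Hcst was 251 CPM (233 to 271) in the Cox6a2 cluster, 127 (117 to 137) in the Gzmc cluster and 63.1 (55.7 to 71.3) in the Mt2 cluster. Its level in T cell-like cells, 248 CPM (209 to 292), was close to that of the Cox6a2 cluster, and macrophage-like cells had 40.7 (33.5 to 49.0). The highest Hcst value, 333 CPM (293 to 377), was in the unnamed cluster with Cxcr6 and Tcrg-C4 among its leading genes. Tyrobp was 3091 CPM (3023 to 3161) in the Hspb1 cluster and 1583 (1545 to 1622) in the Mt2 cluster, against 349 (302 to 400.3) in T cell-like cells. Median depths were 2257, 2659 and 5658 UMIs in the Hspb1, Cox6a2 and Mt2 clusters. Tyrobp had 7811 UMIs in the 931 Hspb1 cells and 6495 in the 755 Mt2 cells, so its share was lower there but not its UMIs per cell. Hcst had 677 UMIs in the 909 Cox6a2 cells and 259 in the Mt2 cells, lower by both measures. Fcer1g ran from 2538 CPM (2490.0 to 2588) in the Mt2 cluster to 3598 (3488 to 3711) in that led by small RNA genes, and was 4219 (4142 to 4296) in macrophage-like and 512 (455 to 574) in T cell-like cells.

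Syk was 73.1 CPM (63.2 to 84.0) in the Cox6a2 cluster, 15.3 (12.2 to 19.1) in the Gzmc cluster and 5.36 (3.36 to 8.12) in the Mt2 cluster. B cell-like cells had 297 CPM (256 to 343), dendritic cell-like cells 141 (123 to 161) and macrophage-like cells 138 (125 to 153), while T cell-like cells had 15.6 (7.14 to 29.6). Zap70 was more even, at 166 CPM (151 to 182) in the Cox6a2 cluster and 77.5 (69.2 to 86.5) in the Mt2 cluster, with 196 (162 to 236) in T cell-like and 14.9 (10.7 to 20.2) in macrophage-like cells. The unnamed Cma1 cluster had 136 CPM (119.7 to 154) of Syk, above every NK-like cluster.

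Sh2d1a differed least of the members among the NK-like clusters, with 109 CPM (90.5 to 130.2) in that led by small RNA genes, 105 CPM (93.1 to 118) in the Cox6a2 cluster and 79.7 (71.3 to 88.8) in the Mt2 cluster, and was 101 (76.4 to 130.1) in T cell-like and 8.0 (5.01 to 12.1) in macrophage-like cells. Sh2d1b1 was 111 CPM (99.0 to 125) in the Cox6a2 cluster, 46.8 (40.4 to 53.9) in the Mt2 cluster, 60.4 (51.5 to 70.3) in macrophage-like and 10.4 (3.82 to 22.6) in T cell-like cells. The highest Sh2d1b1 value, 132 CPM (107 to 160.1), was in the unnamed cluster with Cxcr6. The value of T cell-like cells rests on 6 UMIs.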

How the data were processed

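The authors deposited counts per gene for each bulk library, with gene lengths, made from reads aligned to mm10 with HISAT2 2.1.0 per the labels, where the labels name featureCounts and the methods name RSEM as the counter. They deposited UMI counts per gene and cell for the single cells, mapped to GRCm39, in 2 files that share all barcodes and no gene and were joined here as 1 matrix.

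Counts of all groups of an experiment entered 1 fit in edgeR 4.0.16 (R 4.3.3) by its quasi-likelihood test with TMM scaling, the RPKM filter of 10, Benjamini-Hochberg adjustment over all genes kept, and no covariates. The filter and the fold of 2 follow the study, which used limma. Calls needed an adjusted p below 0.05 and a fold above 2. The standard errors were derived from the test, as the size of the log2 fold change divided by the square root of its F statistic. They are not a separate measure of the spread. Levels are RPKM computed from the counts and the deposited lengths, taken for all libraries from virgin replicate 2. Virgin replicate 1 listed 55573 genes and every other library 54446. Only the genes listed in every library were kept, which hold 99.90% of the counts of virgin replicate 1. The part of its longer gene list in the differences between the virgin libraries was not tested. Alternatives were DESeq2 1.42.0, limma voom 3.58.1, other scalings and filters, the groups compared alone, a replicate block, no fold limit and each library left out. On simulated counts with 200 genes changed 4-fold, the fit recovered 93.5% for gd8.5 against gd6.5 (4504 genes), 90.0% for CB_hi against CB_int (4683), 60.5% for IL21_iSTAT3 against ctrl (4158) and 55.5% for 72 h against 24 h (3503). Of the calls in these simulations 6.97%, 4.26%, 3.97% and 3.48% were false, in the same order, the first above the 5% that the adjusted p aims at. The simulated spread was estimated from the same libraries. Smaller changes were not simulated, so these rates do not tell how often a change near 2-fold would be called.

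Cells were clustered with scanpy 1.11.5 on 2000 variable genes, 20 components and 20 neighbours at resolution 0.8, and clusters took their names from marker lists. The study states limits of 200 and 2500 on UMIs, which leave 4338 of 15175 cells. The same limits on genes were used here and leave 8907 together with the mitochondrial limit of 10%. The upper limit on genes alone removed 4169 cells with a median of 11187 UMIs. Without it, deep clusters included terminal trNK-like cells led by Ctsg (455 cells, median 14799 UMIs) and dividing cells (1123 and 491 cells). Ncr1 was 247 CPM in that terminal cluster and 160 CPM in an unnamed cluster led by Gm8961 and Mt2. The terminal and dividing values given above thus cover only cells under the limit.

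The members, marker lists and pathway lists were chosen with earlier results of these data known. Of the pathway lists, up to 4 called genes per list and comparison are named by size of the log2 fold change, or at most 2 with the largest size where none was called. A result that this rule would name is not reported here. ATAC-Seq samples were not analysed here. The labels do not tie replicate numbers to a litter, batch or day.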

Additional observations from a re-analysis of the deposited data

Results flagged for a closer look

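The IL-21 effect on Fcgr3 differed between times: the log2 difference with against without IL-21 was 2.16 higher at 72 h than at 6 h by the interaction test of edgeR (standard error 0.39, adjusted p = 0.00901). The Syk difference with IL-21 was -0.64 in the 3-day culture (standard error 0.61, both libraries below ctrl) and 0.36 in the 0 h libraries (standard error 1.29, both above), at no more than 4.82 RPKM. Neither passed the test (edgeR adjusted p = 1 in both), and the difference between the experiments was not tested.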

How the results depend on the processing

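All 14 called differences of members kept their direction under every alternative run. All 14 were still called by DESeq2, limma voom and RLE scaling, while dropping the fold limit could not lose a call. Still called were 12 without the filter, 9 with the replicate block, 8 with total counts, 7 with the groups compared alone and 4 with the filterByExpr filter. With 2 libraries a group, 1 called difference, Hcst in CB_hi against CB_low, held whichever 1 library was left out. Of the called differences, those lost without the filter were Ncr1 at gd6.5 against virgin (-0.97) and Sh2d1b1 from 24 to 72 h (0.96). A lone library was assumed to vary like the other groups. In single cells, 8 of 10 members were higher in NK-like clusters under all 5 alternatives, with no share over all genes to set beside this count. The alternatives were 2 other cell limits, resolution 0.4, 3000 variable genes and thinning to 1000 UMIs. The cells on each side changed between these settings. Under the UMI limits, 468 cells named mast cell-like were among the other named clusters, with Ncr1 at 583 CPM beside 605 in the trNK-like cluster. Without the upper gene limit, 1877 cells of the unnamed cluster led by Gm8961 and Mt2 were on neither side. The causes of the changes below were not tested.

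DESeq2 called 462 genes and 5 members for gd6.5 against virgin, 164 for gd8.5 against virgin, 221 for gd8.5 against gd6.5, 187 for CB_int against CB_low, 326 and 1 member for CB_hi against CB_int, 162 and 2 members for IL21 against ctrl, 445 and 1 member for IL21_iSTAT3 against IL21, 583 for IL21_iSTAT3 against ctrl, 127 at 6 h, 146 and 3 members at 24 h and 475 at 72 h of IL-21, 6 from 0 to 6 h, 13 from 6 to 24 h and 345 for the change of the IL-21 effect. In the same order of comparisons, the filterByExpr filter gave 5 genes and 0 members at gd6.5 against virgin, 5, 1 for CB_int against CB_low, 11 for CB_hi against CB_int, 0, 1, 21 and 0 members for IL21_iSTAT3 against ctrl, 10 and 1 member at 6 h, 1 and 0 members at 24 h, 755 at 72 h, 0 from 6 to 24 h, 1143 and 0 members from 24 to 72 h, and 367 for the change of the effect. Limma voom gave 32 for CB_int against CB_low.

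Without a filter the numbers were 919 for gd6.5 against virgin, 502 and 1 member for gd8.5 against virgin, 452 for gd8.5 against gd6.5, 471 and 1 member for CB_int against CB_low, 2022 for CB_hi against CB_low, 587 and 2 members for CB_hi against CB_int, 146 and 1 member for IL21 against ctrl, 461 and 1 member for IL21_iSTAT3 against IL21, 653 for IL21_iSTAT3 against ctrl, 3 at 0 h, 3 members at 24 h, 1518 at 72 h, 6 from 0 to 6 h, 14 from 6 to 24 h, 1829 from 24 to 72 h and 873 for the change of the effect. Without a fold limit they were 425 for gd6.5 against virgin, 1625 and 6 members for CB_hi against CB_low, and 1 member at 72 h. With the groups compared alone they were 0 and 0 members for gd6.5 against virgin, 251 for gd8.5 against gd6.5, 5 for CB_int against CB_low, 27 for CB_hi against CB_int, 57 for IL21_iSTAT3 against IL21, 250 at 6 h, 367 and 3 members at 24 h, 0 at 72 h, 5 from 0 to 6 h, 13 from 6 to 24 h, 3 and 0 members from 24 to 72 h, and 54 and 0 members for the change of the effect. Total counts gave 10 for gd8.5 against virgin, 1 member at 6 h, 1 from 0 to 6 h, 0 from 6 to 24 h and 0 members from 24 to 72 h.

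With the replicate block, 2 genes and 0 members were called for gd6.5 against virgin, 0 for gd8.5 against virgin, 25 for CB_int against CB_low, 142 and 1 member for CB_hi against CB_int, 1 for IL21 against ctrl, 8 for IL21_iSTAT3 against IL21, and 55 and 0 members for IL21_iSTAT3 against ctrl. Deviations of libraries with the same number correlated from -0.29 to 0.1 over gestation and 0.01 to 0.4 in the subsets. They ran from -0.51 to 0.6 in culture and -0.4 to 0.47 in the time course. Whether libraries with the same number share animals or a sort is not given and cannot be told from these values.

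Leaving out 1 library at a time gave 0 to 771 genes and 0 to 6 members for gd6.5 against virgin, 0 to 469 and 0 to 1 for gd8.5 against virgin, 0 to 0 for gd8.5 against gd6.5, 0 to 4 for CB_int against CB_low, 416 to 855 and 1 to 2 for CB_hi against CB_low, 1 to 38 for CB_hi against CB_int, 2 to 17 for IL21 against ctrl, 7 to 40 for IL21_iSTAT3 against IL21, 37 to 99 and 0 to 1 for IL21_iSTAT3 against ctrl, 0 to 19 and 0 to 2 at 6 h, 1 to 5 and 0 to 0 at 24 h, 246 to 907 and 0 to 1 at 72 h, 0 to 0 from 6 to 24 h, 227 to 1144 and 0 to 3 from 24 to 72 h, and 65 to 745 and 0 to 1 for the change of the effect. For gd6.5 against virgin, no member was called without gd6.5 replicate 1 or 2, 3 were without virgin replicate 1 and 6 without virgin replicate 2.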
